A study of Mus musculus with 3 samples.

Results

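Interferon-stimulated genes are the genes that cells switch on when interferons reach their surface receptors. The 40 members described here were taken by name and matched by gene symbol to the GENCODE M21 gene tables, in which all 40 were found among 55536 annotated genes. The rule itself uses no measured value. The cells were effector memory CD4-positive, alpha-beta T cells, helper T cells that have met antigen before. They were primary cells of an adult male mouse of strain B6.SJL-Ptprca Pepcb/BoyJ, a line with the C57BL/6 background and a variant CD45 allele, aged 5 months. No treatment or infection is named in the labels, and the gate of the sort is not stated. Polyadenylated RNA of 1 biosample was sequenced in 3 libraries that the labels number as technical replicates 1, 2 and 3. There was 1 group, so no conditions could be compared, and every SD below is a spread between libraries of the same cells.

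Type I interferons signal through Ifnar1 and Ifnar2 and the kinases Jak1 and Tyk2 to a transcription factor complex that holds Stat2 and Irf9. That complex binds the interferon-stimulated response element, a pair of GAAA blocks set close together, in promoters of its target genes. Interferon gamma acts through Ifngr1 and Ifngr2, and its targets carry gamma-activated sites. The target genes encode sensors of foreign RNA and DNA, enzymes that destroy or edit RNA, and proteins that block viral entry, replication or release, and resting lymphocytes transcribe many of them at a low, tonic level.

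The libraries held 17474991, 15303615 and 16882311 expected counts on annotated genes in libraries 1, 2 and 3. An expected count need not be whole, since a read that fits several transcripts was divided between them. TPM, transcripts per 1e6 transcripts, is corrected for length, so it was used wherever levels of different genes are set side by side. Genes with 1 TPM or more in each library were taken as detected, and 11694 genes were. Library 1 stood apart: 12462 genes reached that level in it, against 13483 and 13560 genes in libraries 2 and 3. Of the genes with enough counts, 16.7% differed between libraries 2 and 3 beyond counting error, against 75.8% when library 1 was included. The number of members that differ between libraries is therefore given with and without library 1. A mean ± SD below covers all 3 libraries, library 1 included. All 10 T cell markers were detected. The summed TPM of the 8 plasmacytoid dendritic cell markers ranged between 34.5 and 41.4, led by Pacsin1 and Tcf4, with Siglech at no more than 0.57. The 10 monocyte and macrophage markers summed to 15.9 to 18.5, led by Ms4a6c and Cd68, with Fcgr1 at 0. The 6 conventional dendritic cell markers summed to 14.1 to 17.6, led by Zbtb46, and the 6 NK cell markers to 13.7 to 16.1, led by Klrb1c and Eomes. The 7 B cell markers summed to 1.95 to 3.31 and the 7 neutrophil markers to at most 0.32. Other cell types could add to members that they also express, and their part in the levels was not tested.

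The response element was searched in promoter windows from 250 bases before to 50 bases after the annotated start, taken from RefSeq on GRCm38.p6. Windows were given for 29 of the 40 members. The motif, which reads GAAA, any 2 bases and GAAA, was searched on either strand with overlapping matches counted, and was found in 19 of these 29 members (65.5%), against 3.99% of 27025 genes with a window. With a C after the last A it was found in 12 members (41.4%) and in 0.944% of all genes. Among genes detected in these cells, 17 of 26 members and 3.90% of 8227 genes held the shorter motif. The gamma-activated site TTCNNNGAA, searched on either strand, was found in 7 of 29 members (24.1%) and in 9.55% of all genes. A match is a run of letters and does not show that a factor bound there. Windows of 60 bases upstream of the start are printed for the 4 most abundant members with a match, and for 2 pairs of close copies, because their values differ while the printed stretches are nearly the same. Letters in capitals are the motif or its reverse complement, and overlapping matches run together.
Isg15: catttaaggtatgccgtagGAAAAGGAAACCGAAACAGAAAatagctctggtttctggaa
Ifi203: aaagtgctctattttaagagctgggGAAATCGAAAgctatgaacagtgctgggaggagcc
Bst2: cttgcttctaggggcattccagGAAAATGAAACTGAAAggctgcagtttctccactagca
Ifi213: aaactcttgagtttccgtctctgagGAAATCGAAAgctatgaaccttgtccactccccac
Ifit3: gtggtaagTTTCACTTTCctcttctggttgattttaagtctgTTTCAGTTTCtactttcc
Ifit3b: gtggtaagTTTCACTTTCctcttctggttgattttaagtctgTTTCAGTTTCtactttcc
Oas1a: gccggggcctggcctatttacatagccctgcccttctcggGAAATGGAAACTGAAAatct
Oas1g: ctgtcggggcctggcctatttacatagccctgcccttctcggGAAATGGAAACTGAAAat

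All windows read 5′ to 3′ on the strand of the gene. They lie on GRCm38.p6 at chr4:156200856-156200915 (minus strand) for Isg15, chr1:173942493-173942552 (minus strand) for Ifi203, chr8:71537565-71537624 (minus strand) for Bst2 and chr1:173599311-173599370 (minus strand) for Ifi213. Those of the copies lie at chr19:34583365-34583424 (plus strand) for Ifit3, chr19:34607761-34607820 (plus strand) for Ifit3b, chr5:120907526-120907585 (minus strand) for Oas1a and chr5:120887614-120887673 (minus strand) for Oas1g. Isg15 held 3 overlapping matches, starting 78, 72 and 66 bases before the start. The windows of Ifit3 and Ifit3b were identical over 60 of 60 bases, although the same stretch lies 32 bases farther from the annotated start in Ifit3b. Those of Oas1a and Oas1g were identical over 57 of 58 aligned bases. Over the whole promoter windows, aligned without gaps, 201 of 268 bases matched between Ifit3 and Ifit3b and 207 of 298 bases between Oas1a and Oas1g. Ifi203 and Ifi213, and also Ifi206, held 1 match each, 35, 73 and 40 bases before the start.

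The other members with a match were Ifit1, Ddx58, Ifih1, Eif2ak2, Oas3, Rsad2, Trim30a, Trim21, Slfn8 and Slfn5. In 12 members the matches read along the gene and in 7 along the other strand, and no member had both orientations. A match upstream of the start was present in 15 members, while in Ddx58, Ifih1, Eif2ak2 and Trim21 the matches began 2 to 32 bases after it. No match was found in Ifit2, Adar, Oasl1, Oasl2, Isg20, Samd9l, Ifi35, Ifi44, Xaf1 and Dtx3l. Parp14, Parp9, Rtp4, Zbp1, Ifi27l2a, Usp18, Mx1, Mx2, Dhx58, Ifi204 and Oas2 had no window. The median of the mean TPM was 20.7 over the 19 members with a match and 24.0 over the 10 without.

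**Figure D1:**
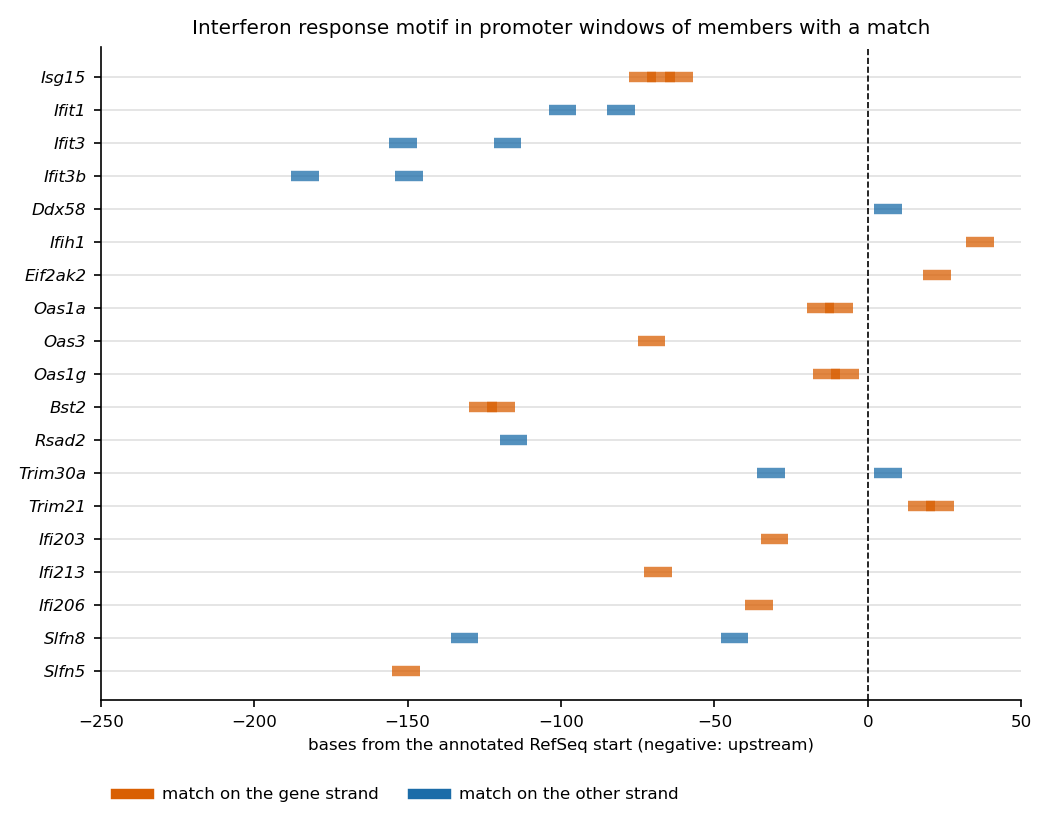
Position of the motif GAAA, any 2 bases and GAAA, in the promoter windows of the 19 members with a match, by distance in bases from the annotated RefSeq start (dashed line) and coloured by strand; darker stretches are overlapping matches. Matches begin between 188 bases before and 32 bases after the start, and 15 of the 19 members have one upstream.

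Of the 40 members, 35 were detected in every library (87.5%), against 21.1% of annotated genes and 44.9% of protein-coding genes. The 35 had a median level of 4.58 on the log2(TPM + 1) scale, against 4.60 for all 11694 detected genes and 4.85 for those that are protein-coding. The median TPM of the 35 was 17.1 in library 1, below the 21.4 of detected genes there, and 30.4 and 29.95 in libraries 2 and 3, above their 24.7 and 23.5. Over all 40 members the median was 4.43, with library medians of 3.67 in library 1 and of 4.49 and 4.39 in libraries 2 and 3. Their TPM summed to 1255, 1378 and 1436 in libraries 1, 2 and 3. In bulk RNA, a gene transcribed by fewer cells cannot be told apart from one with less RNA per cell. The 4 most abundant members, Ifi27l2a, Isg15, Ifi203 and Ifi35, made up 46.0% of the members' summed mean TPM. When members were ordered by mean TPM, the ranges over the libraries overlapped in all but 2 of the 39 neighbouring pairs, so the order is coarse.

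**Figure D2:**
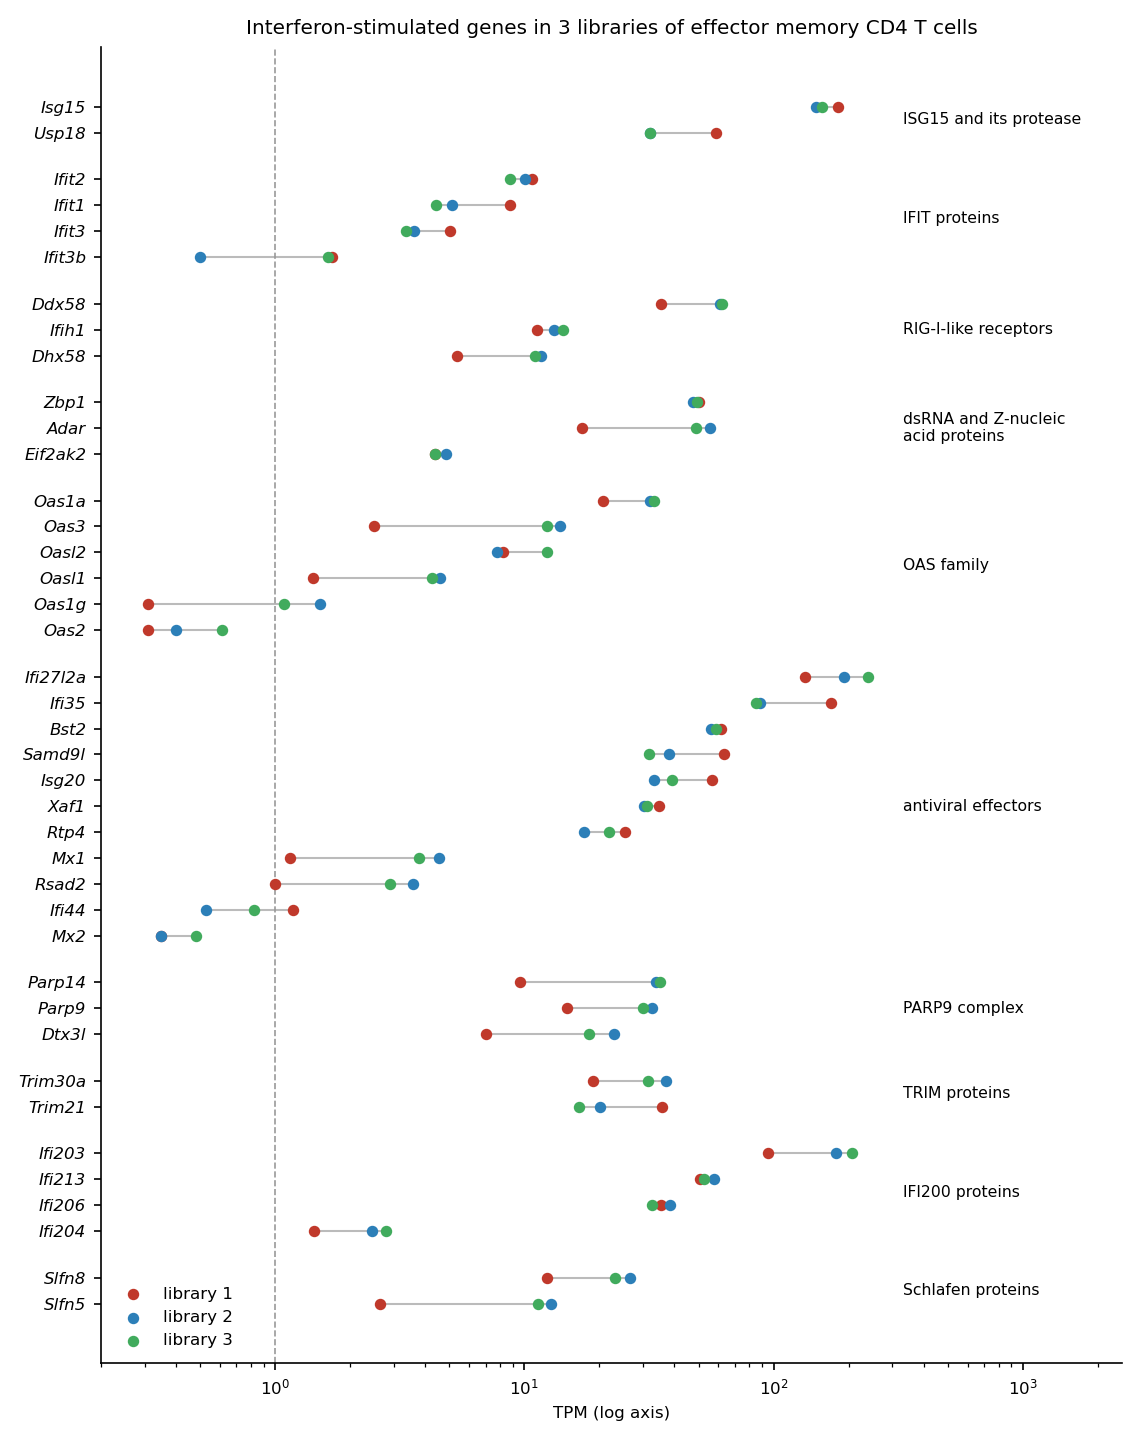
TPM of the 40 members on a log axis, 1 point per library, grouped by role and ordered by mean TPM within a role; grey lines join the lowest and highest library and the dashed line marks a TPM of 1. Levels span 0.31 (Oas1g and Oas2 in library 1) to 240 (Ifi27l2a in library 3), and in the PARP and Schlafen groups library 1 lies to the left of the others.

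Isg15 and its protease were abundant. Isg15 encodes a ubiquitin-like protein that is joined to other proteins, and its TPM was 182, 147 and 156 in libraries 1, 2 and 3 (162 ± 17.9, SD, n = 3), higher than in 90.2% of detected genes. Usp18, which removes ISG15 from proteins and restrains the type I receptor, stood at 58.8, 31.9 and 32.0. Both were highest in library 1, Usp18 by 2.04-fold over library 2 in counts per 1e6 counts (CPM). The 4 genes of the conjugation machinery were detected: the activating enzyme Uba7 averaged 125 ± 16.4 (SD, n = 3), the conjugating enzyme Ube2l6 6.23 ± 4.60, and the ligases Herc6 and Trim25 24.2 ± 6.74 and 20.8 ± 9.88.

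The IFIT genes, which encode proteins that bind viral RNA, were low. Ifit2 averaged 9.87 ± 0.992 (SD, n = 3) and Ifit1, which binds RNA with an incompletely methylated cap, had 8.80, 5.11 and 4.42 in libraries 1, 2 and 3. Ifit3 had 5.02, 3.62 and 3.36. Its copy Ifit3b had 1.70, 0.50 and 1.63 and was not detected, from 36, 9 and 33 counts. Thus Ifit3 exceeded Ifit3b in each library despite the identical promoter stretch, by 2.95-fold, 7.24-fold and 2.06-fold. The division is uncertain, because 51.2% of the 50-base windows of Ifit3 transcripts also occur in Ifit3b. The 4 genes lie within 99.3 kb of chromosome 19 (34550694 to 34650009).

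Of the RIG-I-like receptors, which detect viral double-stranded RNA in the cytosol, Ddx58 (RIG-I) was the most abundant, with 35.3, 60.8 and 62.0 TPM in libraries 1, 2 and 3. Ifih1 (MDA5) had 11.2, 13.2 and 14.3, and Dhx58 (LGP2), which modulates the other receptors, had 5.36, 11.7 and 11.1. In each library Ddx58 was over the other 2 receptors. Their adaptor gene Mavs averaged 9.36 ± 1.54 TPM and the downstream kinases Tbk1 and Ikbke 81.7 ± 23.1 and 106 ± 8.97 (SD, n = 3).

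Among proteins of double-stranded RNA and Z-form nucleic acids, Zbp1, a sensor that can start necroptosis, was steady at 50.2, 47.4 and 49.3 TPM in libraries 1, 2 and 3. Eif2ak2, the kinase PKR, which stops translation when it binds double-stranded RNA, was low and even at 4.37, 4.85 and 4.38. Adar, which deaminates adenosine to inosine in double-stranded RNA, had 17.1 in library 1 against 55.7 and 49.0 in libraries 2 and 3. Library 1 thus lay well below the others for Adar and close to them for Zbp1 and Eif2ak2. Exons of Adar share 1365 bases with Chrnb2 on the opposite strand, whose own TPM was at most 1.37.

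Adar makes a long protein from an interferon-inducible promoter and a shorter one from a constitutive promoter. The deposited transcript tables assigned most of the gene to its 2 longest coding transcripts, Adar-203 of 1178 residues and Adar-201 of 1152 residues. Their share of the gene's TPM was 73.7%, 78.8% and 79.6% in libraries 1, 2 and 3 (77.4% ± 3.19, SD, n = 3). Adar-202, of 930 residues, was listed at 0 in libraries 1 and 2 and at 9.08% in library 3. Adar-205, of 634 residues, took 22.4% in library 1, against 5.74% and 1.84% in libraries 2 and 3. The annotated start of Adar-205, 89730748, is also that of Adar-203 and Adar-201, whereas Adar-202 starts at 89715022. Which promoter each transcript came from was not tested. The long transcripts therefore led in every library, while the division of the rest changed from library to library. Such shares are estimates from 50-base reads over transcripts with most exons in common. No promoter window given for Adar held the motif, and whether a window covers the start of the long transcripts was not tested.

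**Figure D3:**
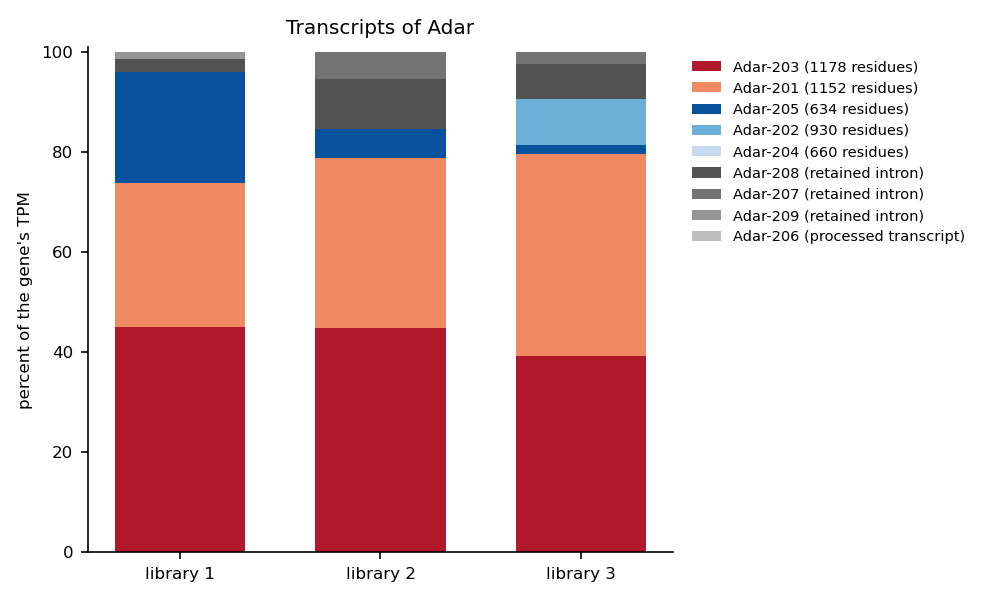
Share of Adar's TPM assigned to each annotated transcript, in percent, stacked for each of 3 libraries; red and orange mark the long coding transcripts, blue the other coding ones and grey those without a coding annotation. The long transcripts sum to between 73.7% and 79.6%.

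The OAS genes encode enzymes that answer double-stranded RNA by making oligoadenylates, and relatives that are not all active enzymes. Oas1a led the family, with 20.6, 31.9 and 33.3 TPM in libraries 1, 2 and 3. Its copy Oas1g had 0.31, 1.52 and 1.09, and Oas2 had 0.31, 0.40 and 0.61, so neither was detected. Oas1g had only 2, 13 and 11 counts in libraries 1, 2 and 3, so ratios to it are imprecise. Oas1a exceeded Oas1g 66.6-fold, 21.01-fold and 30.5-fold in libraries 1, 2 and 3, with a promoter stretch that differs by 1 base. That division is uncertain, since 57.6% of the 50-base windows of Oas1a transcripts also occur in Oas1g, and the transcript tables assigned none of Oas1g to a coding transcript. Oas3 had 2.49, 13.95 and 12.3 in libraries 1, 2 and 3. Oasl2 averaged 9.41 ± 2.50 and Oasl1, which in mice restrains translation of Irf7, 3.43 ± 1.75 (SD, n = 3).

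Among antiviral effectors, Ifi27l2a, a small hydrophobic protein gene, had the highest mean of all members, with 134, 191 and 240 TPM in libraries 1, 2 and 3. Ifi35, which encodes a leucine zipper protein, had 169, 88.2 and 84.9. Bst2, which encodes tetherin, the membrane anchor that holds budding virus, stood at 61.3, 56.2 and 58.7. Ifi27l2a was thus lowest and Ifi35 highest in library 1, while Bst2 varied little. Samd9l, Isg20, an exoribonuclease, Xaf1, which promotes apoptosis, and Rtp4 averaged between 21.5 and 44.2.

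Other effector genes were low. Mx1, a dynamin-like GTPase that is defective in many laboratory strains, had 1.15, 4.56 and 3.78 TPM in libraries 1, 2 and 3, and Mx2 had 0.35, 0.35 and 0.48. Rsad2, which encodes viperin, had 1.00, 3.56 and 2.89. Ifi44 had 1.18, 0.53 and 0.82. Mx2 and Ifi44 were not detected, and their counts summed over the libraries were 25 and 60. The other chosen interferon-stimulated genes outside the member list were nearly all present, 44 of 45, and only Cxcl9 was not detected. They were led by the antigen presentation genes H2-K1 at 10481 ± 1723 and B2m at 4888 ± 2500 TPM, and Shisa5 at 2433 ± 364 (SD, n = 3). B2m had 2028, 5979 and 6657 in libraries 1, 2 and 3.

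Parp9 and Dtx3l, whose proteins form a ubiquitin ligase complex, lie head to head on chromosome 16 beside Parp14, a mono-ADP-ribosyltransferase. Parp9 had 14.9, 32.7 and 29.95 TPM in libraries 1, 2 and 3, Dtx3l had 7.03, 22.9 and 18.3, and Parp14 had 9.64, 33.7 and 34.9. All 3 were lower in library 1 than in each of the others. Parp9 and Dtx3l share 458 exonic bases on opposite strands, and whether counting used strand is not given, so their levels are uncertain to that extent.

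The IFI200 genes encode DNA-binding proteins of a cluster that spans 474 kb from the first to the last of the 4 members on chromosome 1. Ifi203 had 94.8, 178 and 207 TPM in libraries 1, 2 and 3, and Ifi213 had 50.5, 57.6 and 52.5. Ifi206 averaged 35.5 ± 2.90 and Ifi204, which senses cytosolic DNA, 2.22 ± 0.706 (SD, n = 3). Ifi203 was thus at least 1.88 times Ifi213 in TPM in each library, with transcripts that have no coding annotation included. Between 12.4% and 25.6% of the 50-base windows of these 4 genes also occur in other genes, among them Ifi208, Ifi211 and Mndal, so levels within the cluster are uncertain. The largest part of Ifi203's TPM was assigned to Ifi203-208, a transcript with no coding annotation, at 38.3%, 51.1% and 60.7% in libraries 1, 2 and 3. Coding transcripts held 22.97%, 21.9% and 18.2%. Ifi203-208 had only 154, 319 and 514 of the gene's 1809, 2439 and 2789 expected counts. By counts Ifi203-207, with a retained intron, led with 790, 943 and 942. Much of the gene's TPM, and of its ratio to Ifi213, thus rests on a minority of its counts. By share of TPM, Ifi213 was led by Ifi213-205, a coding transcript of 135 residues, at 59.2%, 47.0% and 45.9% in libraries 1, 2 and 3. Its transcript Ifi213-202, of 586 residues, held 27.2%, 36.6% and 35.1%. By expected counts Ifi213-202 was ahead, with 399, 504 and 514 against 191, 142 and 148 for Ifi213-205.

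The remaining members are the ubiquitin ligase genes Trim21 and Trim30a and the Schlafen genes Slfn5 and Slfn8. Trim21, a cytosolic antibody receptor, had 35.6, 20.1 and 16.6 TPM in libraries 1, 2 and 3, and Trim30a averaged 29.1 ± 9.36 (SD, n = 3). Slfn5 had 2.64, 12.8 and 11.4 and Slfn8 averaged 20.7 ± 7.44. Trim21 was highest and Slfn5 lowest in library 1. Of 31 matched relatives of the members 19 were detected, led by Slfn2 at 586, Mndal at 335 and Ifi27 at 244 mean TPM, each above every member.

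The spread between libraries was set against counting error with Pearson's chi-square test of expected counts over the libraries, Benjamini-Hochberg adjusted over the 13177 genes with at least 30 counts in total. Of the members, 38 were tested, all but Oas1g and Mx2, and 29 were called at an adjusted p below 0.05 (76.3%), against 75.8% of all genes tested. The members were therefore called about as often as any gene. After the chi-square was divided by its median overdispersion over all genes, 13.8, 14 members were called (36.8%), against 27.1% of all genes. With libraries 2 and 3 alone, 3 of 37 members were called (8.11%), namely Ifi27l2a, Dtx3l and Ifit3b, against 16.7% of all genes.

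Of the called members 10 were highest in library 1 (26.3% of those tested), against 32.9% of all genes tested, and 18 were lowest in it (47.4%), against 40.1%. Ifi206 was called with library 1 between the others. The 18 were Ddx58, Dhx58, Zbp1, Adar, Oas1a, Oas3, Oasl1, Ifi27l2a, Mx1, Rsad2, Parp9, Dtx3l, Parp14, Trim30a, Ifi203, Ifi213, Slfn5 and Slfn8. The places are by CPM, and of the called members Zbp1 alone has another place by TPM: its CPM was 44.0, 48.7 and 50.3 in libraries 1, 2 and 3 (adjusted p = 0.0279, chi-square test with Benjamini-Hochberg adjustment), whereas its TPM was highest in library 1. The 10 were Isg15, Usp18, Ifit1, Ifit3, Ifit3b, Ifi35, Samd9l, Isg20, Rtp4 and Trim21. In a contrast of library 1 with the mean log2 of libraries 2 and 3, 16 members were called lowest and differed at least 1.5-fold (42.1%), against 28.0% of all genes, and 6 were called highest and did so (15.8%), against 18.4%. With the overdispersion-scaled test 3 members, Ifi35, Usp18 and Trim21, were called highest in library 1 (7.89% of those tested), against 12.7% of all genes. With that test 11 were called lowest in it (28.9%), against 14.3%. The 11 were Ddx58, Adar, Oas3, Ifi27l2a, Parp9, Dtx3l, Parp14, Trim30a, Ifi203, Slfn5 and Slfn8, so Zbp1 was no longer called. The median log2 ratio was -0.24 over the 38 members tested and -0.10 over the 13081 genes tested that had counts in every library. The members' median size of that ratio was 0.72, against 0.10 for the ratio of library 2 over library 3, and over all genes these medians were 0.59 and 0.13.

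Among called members lowest in library 1, Oas3, Parp14, Slfn5, Mx1 and Dtx3l had the largest folds. In CPM, Oas3 differed 5.41-fold between its highest and lowest library (adjusted p = 5.91e-82, chi-square test with Benjamini-Hochberg adjustment), Parp14 4.08-fold, Slfn5 3.88-fold, Mx1 3.29-fold and Dtx3l 3.11-fold. With the overdispersion-scaled chi-square test the adjusted p of Oas3 was 8.90e-06, and Mx1 was not called. The largest in the other direction was 3.50-fold for Ifit3b, on few counts and with library 2 as its lowest, followed by Trim21 at 2.23-fold, Ifi35 and Usp18 at 2.04-fold each and Ifit1 at 2.01-fold. The median effective length, the transcript length open to a read, was 1616 bases for the members highest in library 1 and 2925 bases for those lowest in it. Over all genes called it was 1700 and 2693 bases. The part of length in these differences was not tested.

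**Figure D4:**
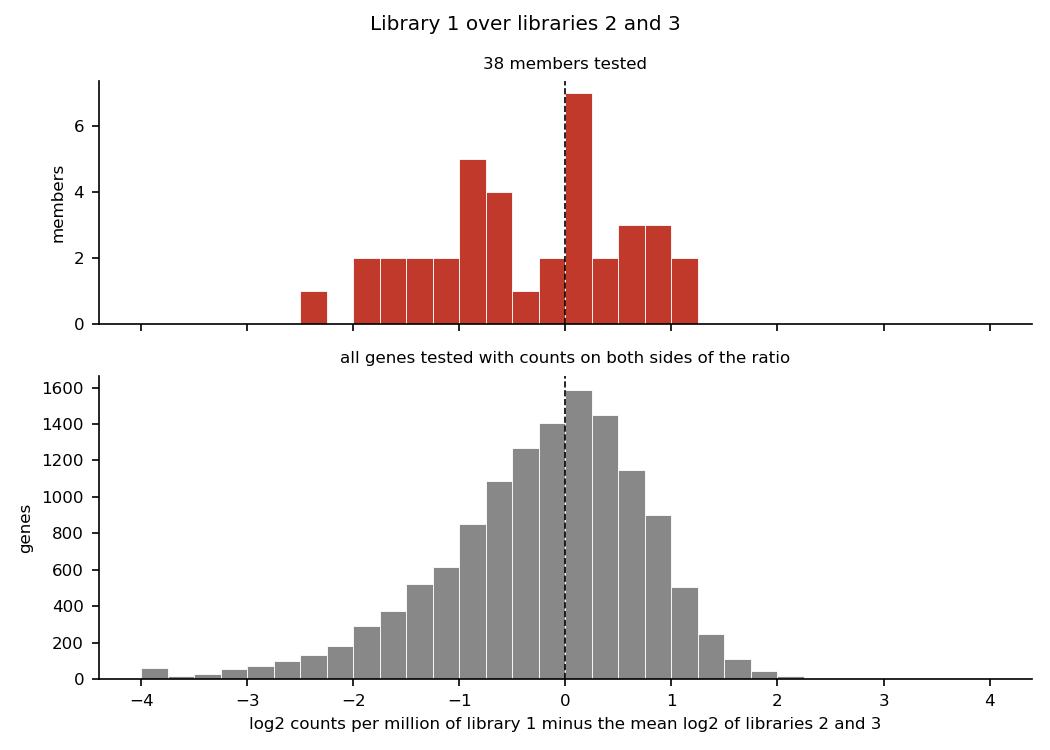
Histograms of the log2 ratio of CPM in library 1 over the mean log2 of libraries 2 and 3, in bins of 0.25 with values past 4 in the end bins, for the 38 members tested (upper, number of members) and the 13081 genes tested with counts in every library (lower, number of genes); the dashed line marks no difference. Members extend from -2.38 to 1.06, with a median of -0.24, inside the spread of these genes, which have a median of -0.10.

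Transcripts of the receptors, kinases and factors that drive these genes were detected with 1 exception, while of the chosen ligands 1 gene was detected. Of 14 interferon ligand genes 1 was detected: Ifng, encoding interferon gamma, at 312, 477 and 447 TPM in libraries 1, 2 and 3. Ifnb1 was listed at 0, 0.16 and 0.55, and Ifnk and Ifnz had at most 0.16. The other 10 chosen ligands had no count, which allows up to 3 counts per library or at most 0.196 CPM. These 10 include the alpha genes Ifna1, Ifna2, Ifna4, Ifna5, Ifna11, Ifna13 and Ifnab and the lambda genes Ifnl2 and Ifnl3. No other interferon alpha gene was among the chosen ligands. The type I receptor genes Ifnar1 and Ifnar2 averaged 229 ± 34.6 and 117 ± 8.42 TPM (SD, n = 3). Ifngr1 averaged 1606 ± 487 and Ifngr2 38.0 ± 9.04, whereas the lambda receptor chain Ifnlr1 had no count.

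All 6 signal transducers were detected. Jak1 averaged 538 ± 29.4 TPM, Jak2 194 ± 27.6 and Tyk2 42.0 ± 17.2 (SD, n = 3). Stat2 had 26.2, 30.7 and 27.2 in libraries 1, 2 and 3, and Irf9 had 53.2, 48.5 and 48.2. Irf9 was thus above Stat2 in every library. All 8 interferon regulatory factors were detected, led by Irf1 at 204 ± 71.2, Irf7, itself an interferon-stimulated gene, at 187, 199 and 168, and Irf3 at 110.1 ± 17.8. Of 14 partners in nucleic acid sensing 11 were detected, led by Samhd1 at 228 ± 46.9, Zc3hav1 at 207 ± 85.3 and Ikbke, and Tlr3, Tlr7 and Tlr9 were not.

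By the same chi-square test, which called 75.8% of all genes, 32.9% as highest and 40.1% as lowest in library 1, many of these genes were called too, and nothing particular to the pathway is read from it. The 5 receptors tested were all called, 4 highest and 1 lowest in library 1. Of the 6 transducers 5 were called, 3 highest and 2 lowest, and of the 8 interferon regulatory factors 7 were called, 5 highest and 2 lowest. Of the 12 sensing partners tested 9 were called, 2 highest and 6 lowest in library 1, and the 4 conjugation genes were called with 2 in each direction. Stat2 and Irf7 were not called (adjusted p = 0.291 and 0.0504).

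**Figure D5:**
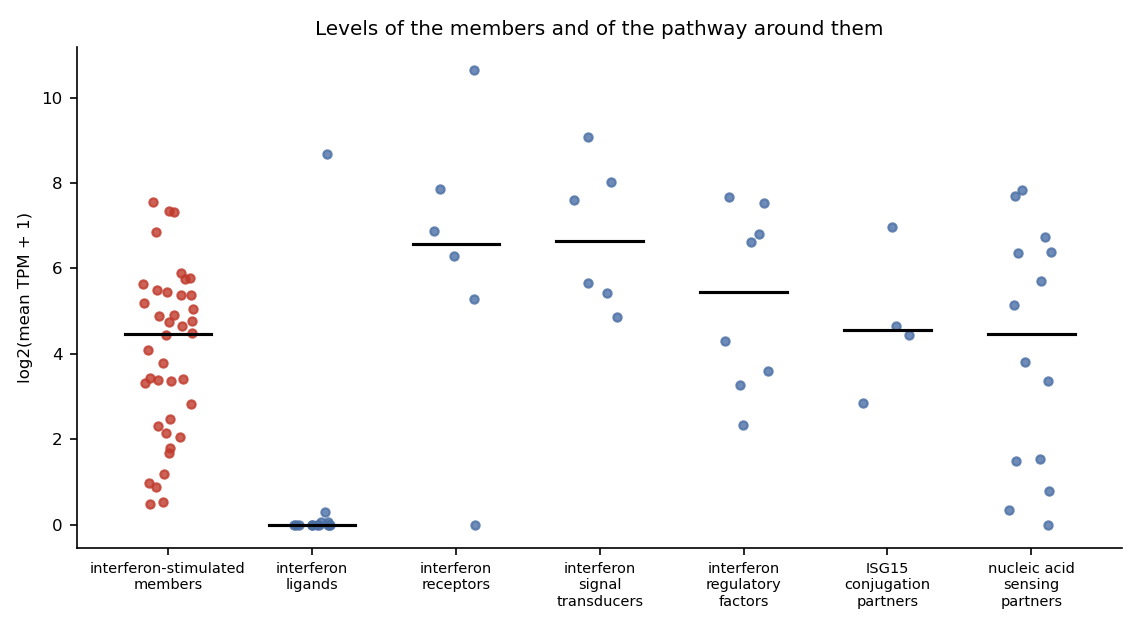
Mean TPM over 3 libraries as log2(mean TPM + 1), 1 point per gene, for the 40 members and for the genes of the pathway around them; black bars are medians. All chosen interferon ligands lie at or near 0 except Ifng, whose mean TPM is 412, while 5 of 6 receptors and all transducers lie above 4.

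Members often lie close together: 21 of the 40 fell into 7 clusters with gaps of at most 500 kb, on chromosomes 1, 5, 11, 16 and 19. In addition to those named above, Oasl1 and Oasl2 lie within 40.98 kb and Oas1a, Oas1g, Oas2 and Oas3 within 177 kb on chromosome 5. Levels within a cluster could differ widely, as between Oas1a at 28.6 ± 6.93 and Oas2 at 0.44 ± 0.154 TPM, or be close, as between Parp14 at 26.1 ± 14.3 and Parp9 at 25.8 ± 9.59 TPM (SD, n = 3).

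Transcripts of 34 members with more than 1 annotated form were compared by their share of the gene's TPM. The same transcript led in every library in 23 of them, the leader was protein-coding in 29, and it held over 50% of the gene's TPM in 24. In Mx1, the leader was a coding transcript, Mx1-202, with 76.2% in library 1, against 7.24% and 0.77% in libraries 2 and 3, where Mx1-205, annotated for nonsense-mediated decay, led with 48.3% and 79.2%. Mx1 had only 28, 76 and 89 counts, so these shares are imprecise. Oasl2 was led in every library by Oasl2-205, also annotated for decay, at 48.7%, 40.1% and 34.4%.

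The deposited GENCODE M4 tables, with whole-number counts, held all 40 members. Of 35 members with enough counts 25 were called (71.4%), against 68.4% of 10242 genes. Library 1 held the same place, highest, lowest or between, in 35 of the 40 members in both tables. Of the M4 calls 9 were highest in library 1 (25.7% of the members tested), against 39.3% of all genes, and 16 were lowest in it (45.7%), against 28.2%.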

How the data were processed

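Polyadenylated RNA of 1 biosample was sequenced in 3 libraries. Per the file headers, the gene and transcript tables use mouse build mm10 with GENCODE M21. They hold expected counts and TPM, as deposited by the authors, and each transcript's percent of its gene, also deposited. Further deposited tables without a header hold whole-number counts on GENCODE M4. Which aligner and quantifier were used, and whether counting used strand, was not given in the sources used here. Rows with a numeric ID and spike-in rows, 0.304%, 0.298% and 0.226% of counts in libraries 1, 2 and 3, were left out.

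Expected counts were rounded for Pearson's chi-square test of homogeneity, with total counts as library sizes, a minimum of 30 counts in total and Benjamini-Hochberg adjustment over all genes tested. With 1 group no edgeR or DESeq2 test was possible; edgeR 4.0.16 and DESeq2 1.42.0 in R 4.3.3 gave only scaling factors for alternatives. The test was checked on simulated counts with planted differences and counting error alone. That check does not cover the median overdispersion of 13.8 in these libraries. Libraries are technical replicates, so p-values measure only the spread between them. The floor of 3 counts and the tests cover counting error only, since the tables carry no molecular identifiers. Promoter windows came from RefSeq on GRCm38.p6, the assembly of mm10, and shared 50-base windows from GENCODE M21 transcripts on either strand. Python 3.11.15, numpy 2.4.6, scipy 1.17.1, pandas 2.3.3 and matplotlib 3.10.9 were used.

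Members and lists were chosen with earlier results of these data known. Values in every library were given for the 8 members highest by mean TPM, those not detected, the 5 called members with the largest fold in each direction of library 1, and 13 members of interest, plus the 3 highest and the undetected of each pathway list and 7 signalling genes. Members and pathway genes outside this rule are named for completeness. Some pathway genes that the rule covers are not reported here. Alternatives were other detection limits, pseudocounts, scalings, count minimums, an overdispersion-scaled test, other motifs and each library left out.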

Additional observations from a re-analysis of the deposited data

How the results depend on the processing

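The count of detected members stayed within 1.5 times its value under every detection limit tried, between 26 and 37, and the median level under every pseudocount. With TMM-scaled counts per 1e6 counts and kilobase that median was 3.74, in place of 4.43, and 17 of 28 named members moved by more than 1 SD, but this alternative also changes the unit. Dividing the chi-square by its median overdispersion of 13.8 lowered the members called to 14 (27.1% of all genes), with 3 highest in library 1 (12.7% of all genes) and 11 lowest in it (14.3% of all genes). Leaving out library 1 gave 3 called members (16.7% of all genes), and leaving out either of the others gave 28 (74.6% and 73.5% of all genes). Of these 9 to 11 were highest in library 1 (34.1% of all genes) and 17 to 19 lowest (39.4% to 40.5%). Without 1 library 35 to 36 members were detected, with medians of 4.23 to 4.39. TMM and DESeq2 scaling each called 31 members (75.8% of all genes). Of the 38 members tested, 14 were called highest in library 1 (36.8%), against 37.2% of all genes with TMM. Another 17 of the 38 were called lowest in it, against 35.9% of all genes with TMM. Both scalings raise every library 1 ratio by a nearly constant amount, so the sign turned only in Oasl2, whose ratio lay near 0 (-0.06, and 0.04 with either). The Adar long share was 89.1% of expected counts and 76.3% to 79.2% of TPM with 1 library left out. The motif with a final C was found in 12 members and the motif with 1 mismatch allowed in 29 of 29, against 38.9% of all genes. The Adar share of expected counts, unlike that of TPM, is not corrected for length, and the cause of the change was not tested. The M4 counts, and the counts highest and lowest in library 1 without library 2 or 3, were alternatives chosen after seeing the data. No paired analysis was possible because there is 1 group. Few counts limit Ifit3b, Oas1g, Oas2, Mx2 and Ifi44.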
